A study of Mus musculus with 20 samples.

Results

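Of 11222 enhancers measured in mouse macrophages, 1143 (10.2%) lay far from any other: the midpoint of each was more than 100000 bp from the midpoint of every other listed enhancer on its chromosome. The rule uses position alone, from the coordinates of the mm39 genome build in the deposited count table, and no tag count enters it. The limit was however set with earlier results of these data known. How the listed enhancers were called is not given, so whether having a listed neighbour depends on tag counts is not known. The other 10079 enhancers had a neighbour within that distance. Isolated here means without another listed enhancer nearby; the distance to genes and promoters was not analysed here.

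Enhancers are stretches of DNA that raise the transcription of genes, often over a distance, and active ones are themselves transcribed, usually in both directions, into short and unstable enhancer RNAs. Several enhancers may lie close together and act on one gene, while others stand alone. Interferon gamma (IFN-γ), a cytokine of T and NK cells, acts through a receptor on the cell surface and the kinases JAK1 and JAK2, whereas CpG oligodeoxynucleotides mimic bacterial DNA and act through the endosomal receptor TLR9, the adaptor MyD88 and NF-κB.

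The cells were bone marrow-derived macrophages of C57BL/6 mice, grown with macrophage colony-stimulating factor. They were left without IFN-γ and CpG (unstimulated, 0 h) or received IFN-γ, CpG or both for 3, 9 or 15 h, which gave 10 groups of 2 libraries, named as biological replicates. The assay was nAnT-iCAGE, which sequences the capped 5′ ends of RNA without an amplification step. One tag is therefore 1 sequenced RNA start inside an enhancer. No untreated cells were collected at 3, 9 or 15 h, so that stimulus and time in culture cannot be told apart in any comparison with 0 h, and all 9 of these comparisons share the same 2 unstimulated libraries. The protocol text also describes a polarization with IL-4 and IL-10 and a stimulation of another length than the sample times; whether they apply to these libraries is not stated.

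The total per library ranged from 12776280 to 13855472 tags. Enhancers took 12879 to 29794 of these, and isolated enhancers 836 to 1903. Counts per isolated enhancer were therefore low: the median was 15.0 tags over all 20 libraries together (range 4 to 463), against 22.0 for the other enhancers. An enhancer was tested where its counts passed a minimum in enough libraries, which 142 of the 1143 isolated enhancers (12.4%) and 2650 of the 10079 others (26.3%) did. An enhancer that passed only through the groups where it was high had to differ between groups, so that what follows on responses is about these 142 and not about all isolated enhancers. The remaining 1001 isolated enhancers entered the levels and summed tags only.

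Isolated enhancers were transcribed at a lower level than the others. Their median level, as tags per 1000000 tags of the whole library (RPM) averaged over the 20 libraries, was 0.0558 (quartiles 0.0340 and 0.0933), against 0.0825 (0.0481 and 0.154) for the others, a ratio of 1.48. The difference had the same direction in every library: the mean RPM per enhancer was 0.0563 to 0.123 for isolated and 0.0919 to 0.205 for other enhancers, and the second exceeded the first 1.42 to 1.83 times. Isolated enhancers were also narrower, with a median width of 245 bp against 293 bp. Per kilobase of enhancer the medians were 0.235 and 0.312 RPM. The 20 libraries measure the same enhancers and are not replicates of this difference, so no test was made.

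Fewer isolated enhancers were found in many libraries. A tag was present in all 20 libraries at 28 isolated enhancers (2.45%) and at 627 others (6.22%), while 714 isolated enhancers (62.5%) and 4546 others (45.1%) had tags in 10 or fewer. In a single library, 36.0% to 60.3% of isolated and 47.7% to 69.2% of other enhancers had a tag. Among the enhancers with enough tags to be tested, the 2 sets lay close together: the median was 0.228 RPM for isolated and 0.248 RPM for other enhancers, and 0.720 and 0.698 RPM per kilobase.

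The level fell step by step with distance over the whole table rather than at the limit. Enhancers with a neighbour within 1000 bp had a median of 0.0979 RPM, those at 5000 to 10000 bp 0.0745, those at 50000 to 100000 bp 0.0594, and the isolated enhancers at 100000 to 200000 bp 0.0590. Beyond 500000 bp the median was 0.0486 RPM over 213 enhancers. The share with enough tags to be tested went from 32.2% in the nearest class to 15.8% just below the limit, 13.5% just above it and 9.86% beyond 500000 bp.

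**Figure D1:**
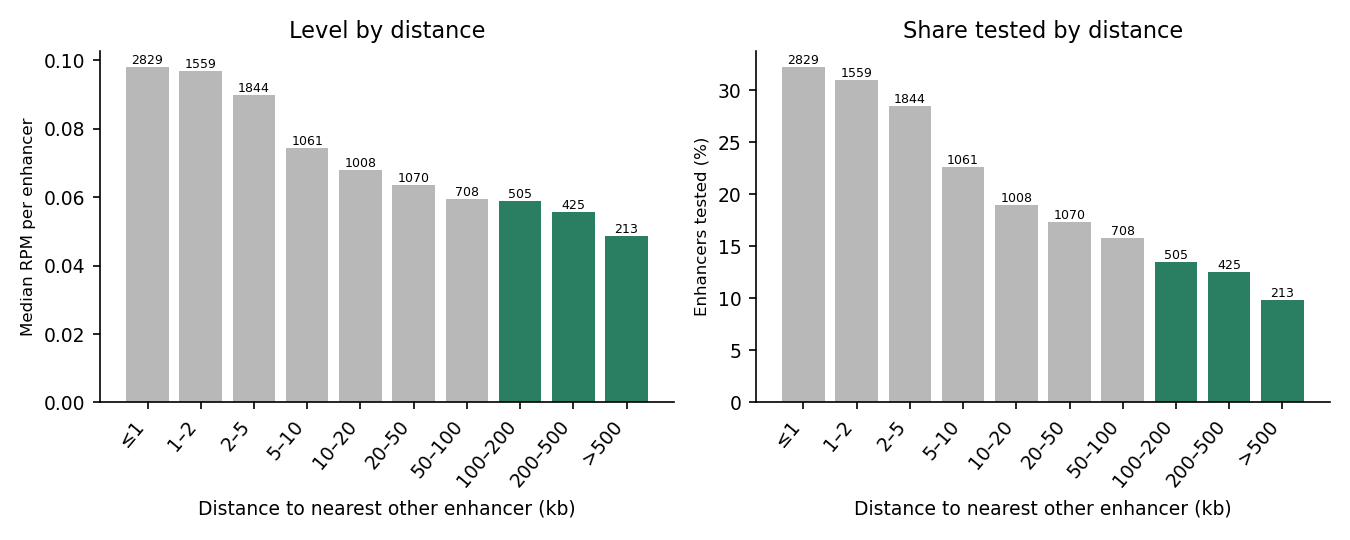
Left, the median level per enhancer (RPM, mean of 20 libraries) and right, the percentage of enhancers with enough tags to be tested, in 10 classes of distance to the nearest other enhancer in kilobases; green bars are the isolated enhancers and the number of enhancers stands above each bar. Both decline from the nearest class (0.0979 RPM, 32.2%) to the farthest (0.0486 RPM, 9.86%), with no step at 100 kb.

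The median distance of an isolated enhancer to its nearest neighbour was 220430 bp; 638 of them were more than 200 kb away, 213 more than 500000 bp and 95 more than 1000000 bp. Isolated enhancers were 6.83% of the enhancers on chromosome 16 and 22.3% of those on the X chromosome. The farthest was chrY:77500470-77500783, 13255282 bp from its neighbour, with 18 tags in all libraries, followed by chr16:70094536-70094733 (4735730.5 bp, 14 tags), the pair chrX:128651345-128651717 and chrX:133017223-133017512, which are each other's nearest neighbours (4365836.5 bp, 21 and 6 tags), and chr12:65174251-65174309 (4236707.5 bp, 6 tags). None of these 5 had enough tags to be tested. One further isolated enhancer was the only one on its unplaced contig. Just inside the limit lay chr2:13303803-13303981 (100025.5 bp, 18 tags), chr12:112483454-112483768 (100239.5 bp, 21 tags) and chr14:67210654-67210956 (100529 bp, 10 tags), and just outside it chr11:20582483-20582892 (99986.5 bp, 16 tags), chr10:21822899-21823271 (99975.5 bp, 17 tags) and chr4:140311630-140311822 (99898.5 bp, 25 tags); none of these was tested either.

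The most strongly transcribed isolated enhancer was chr17:24390226-24391499, 1273 bp wide, at 1.73 RPM over the 20 libraries. It was present everywhere, with 28 and 35 tags in the unstimulated libraries and 10 to 37 in each of the others, and a test of any difference among the 10 groups gave an adjusted p of 0.0739 (edgeR). The next, chr18:13088707-13088956 (1.43 RPM), had 23 and 29 unstimulated tags and 11 to 33 elsewhere, with an adjusted p of 0.0750 in the same test. With both stimuli at 3 h it had 13 and 12 tags, a log2 change of -1.08 ± 0.40 SE (adjusted p = 0.0305). This call was lost without any one of the 4 libraries compared (adjusted p up to 0.390). Next by level were chr11:96713520-96713807 (0.907 RPM), chr1:128518463-128519014 (0.863 RPM) and chr11:86916094-86916489 (0.763 RPM). All 3 differed among the 10 groups in the same test (adjusted p = 7.62e-33, 7.12e-27 and 0.00185), and the first 2 are described with the stimuli. The last had 7 and 6 unstimulated tags, 18 and 15 after 15 h of CpG and 14 and 20 after 15 h of both. These 2 rises were called (log2 change 1.49 ± 0.51 and 1.32 ± 0.50, adjusted p = 0.0454 and 0.0381), and both calls were lost without any 1 of their libraries (up to 0.311 and 0.254).

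The share of all enhancer tags that lay in isolated enhancers does not depend on how libraries are scaled. It was 6.93% and 7.08% in the unstimulated libraries, 6.22% to 7.39% with IFN-γ, 6.67% to 7.38% with CpG and 5.84% to 6.39% with both stimuli. The libraries with both stimuli were thus all below both unstimulated libraries and all 6 CpG libraries, and they overlapped with those of IFN-γ only at 3 h. The group values with both stimuli were 6.35% ± 0.0581 at 3 h, 5.93% ± 0.121 at 9 h and 6.19% ± 0.0293 at 15 h (SD, n = 2 each).

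The log2 ratio of isolated to other tags was 0.20 lower with both stimuli than with CpG (difference -0.20, a ratio of 1.15), and an exact two-sided permutation test over libraries within times gave p = 0.00926, the smallest it can give. After Benjamini-Hochberg adjustment over the 8 comparisons made on this ratio it was 0.0741. Against IFN-γ the difference was -0.16 (p = 0.0278, adjusted 0.111, same exact test), and against unstimulated cells -0.20 (p = 0.0714, the smallest that 6 against 2 libraries allow, adjusted 0.143). None of the 8 passed after adjustment. The size depends on the limit: with a limit of 200 kb the differences from CpG, IFN-γ and unstimulated cells were -0.18, -0.09 and -0.07. With each enhancer weighted equally another measure was used, the mean log2 of RPM plus 0.5 of isolated minus that of other enhancers. Its differences were -0.03, -0.04 and -0.03, of which the first and second passed (adjusted p = 0.0370 for both, same exact permutation test). Most enhancers lie below 0.5 RPM, so this measure is compressed and its sizes cannot be set beside the tag ratio. It also depends on library scaling. The values that follow are again on the tag ratio. The differences for IFN-γ alone (-0.04, adjusted p = 0.816) and CpG alone (-0.0042, adjusted p = 0.929) against unstimulated cells were smaller than the spread between libraries of one stimulus, and so was CpG against IFN-γ (0.03, adjusted p = 0.489). The mean isolated share was higher at 15 h than at 3 h (6.86% ± 0.550 against 6.47% ± 0.201, SD, n = 6 each), which the exact permutation test put at p = 0.0556 (adjusted 0.143).

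**Figure D2:**
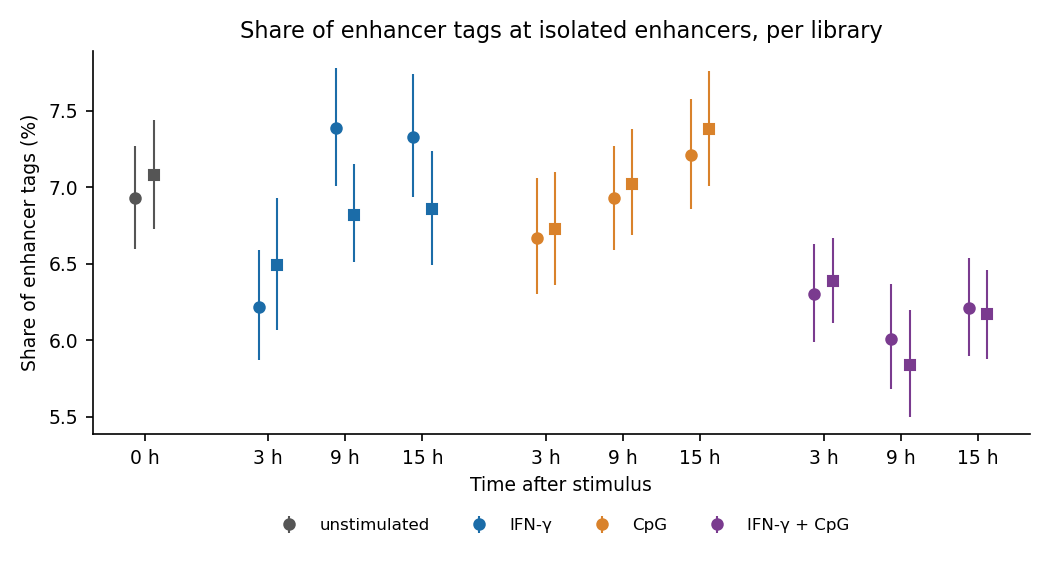
Each point is 1 library: the percentage of its enhancer tags that lay in isolated enhancers, by stimulus and hours, with exact 95% binomial intervals (counting error only); circles are replicate 1 and squares replicate 2, and the vertical axis does not start at 0. The 6 libraries with both stimuli lie between 5.84% and 6.39%, below the 6.67% to 7.38% of the CpG libraries.

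A lower share can come with more tags at other enhancers, so the summed levels are given as well. Isolated enhancers together had 109 ± 2.36 RPM in unstimulated cells and 121 ± 27.7, 80.6 ± 4.47 and 115 ± 19.1 RPM with both stimuli at 3, 9 and 15 h (SD, n = 2). The other enhancers went from 1443 ± 55.6 RPM to 1784 ± 392, 1279 ± 43.4 and 1746 ± 298. Relative to unstimulated cells, the isolated sum was 1.11, 0.742 and 1.06 times as high and the other sum 1.24, 0.886 and 1.21 times. The SD of the groups at 3 h and 15 h was larger than the change of the isolated sum.

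A split by level, chosen after seeing the data, gave a larger difference from CpG among the best-transcribed enhancers; whether the levels differ from each other was not tested. At a mean of at least 3 tags a library (73 isolated, 1551 others) the log2 ratio with both stimuli was 0.37 below CpG (difference -0.37) and 0.27 below IFN-γ (-0.27), each with an adjusted p of 0.0370 in the exact permutation test. From 1 to 3 tags (339 and 3998 enhancers) the differences were -0.14 and -0.21, again at 0.0370. Under 1 tag, where 731 isolated enhancers (64.0% of them) and 4530 others lie, they were -0.10 and -0.05 with adjusted p of 0.444 and 0.698. Isolated enhancers with a mean of at least 3 tags were 6.39% of the set and held 31.8% of its tags.

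Single enhancers were tested with edgeR and called where the p, adjusted by Benjamini-Hochberg over all 2792 tested, was under 0.05. By this rule, 64 of the 142 isolated enhancers (45.1%) were called in at least 1 of the 9 comparisons with unstimulated cells. Of all tested enhancers 53.3% were, and of the others 1425 of 2650 (53.8%). At each time isolated enhancers were called most often with both stimuli, then with IFN-γ and least with CpG, the order in all tested enhancers too. This order depends on the processing: DESeq2 gave 6 for IFN-γ, 5 for CpG and 5 for both at 9 h, and 3, 7 and 7 at 15 h, and with 1 library left out the ranges at 9 h were 7 to 11 for IFN-γ and 6 to 8 for both. DESeq2 gave an adjusted p to only 34 to 82 of the 142 isolated enhancers in these comparisons and none to the rest. Under IFN-γ more of the called isolated enhancers were higher than lower, also when libraries were scaled to whole-library totals. More were lower with both stimuli at 3 and 9 h and with CpG alone at 9 and 15 h, but by whole-library totals the CpG calls at 9 h were even and those with both at 3 h turned. Where 1 library is left out, the lone library of its group is assumed to vary like the other groups.

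With both stimuli at 3 h, 32 isolated enhancers were called (22.5%, beside 27.4% of all tested). Of these, 15 (10.6%) were higher and 17 (12.0%) lower, beside 18.4% and 8.95% of all tested. At 9 h 23 were called (16.2%, beside 22.3%), 10 higher (7.04%) and 13 lower (9.15%), beside 14.1% and 8.27%. At 15 h 23 were called again (16.2%, beside 25.3%), 13 higher (9.15%) and 10 lower (7.04%), beside 15.6% and 9.67%. With 1 of the 4 libraries left out the counts of calls were 12 to 20, 6 to 8 and 9 to 13 instead of 32, 23 and 23. Scaled to whole-library totals the splits were 17 higher and 13 lower at 3 h, 6 and 16 at 9 h and 14 and 9 at 15 h, so that the direction of the majority at 3 h depends on the scaling. For all tested enhancers these totals gave 537 and 203, 290 and 290, and 471 and 227. Among the third of tested enhancers with the highest level, 4 of 39 isolated enhancers were higher and 9 lower at 3 h (10.3% and 23.1%), against 22.9% and 12.1% of 892 others. At lower levels the share of falls at 3 h was closer to that of the others: 4 of 46 isolated enhancers of middle level were higher and 4 lower (8.70% each, against 16.3% and 7.69%), and 7 and 4 of 57 at the lowest level (12.3% and 7.02%, against 17.3% and 6.52%). This was not so at each time. At 9 h falls from the highest to the lowest level were 20.5%, 2.17% and 7.02%, against 10.5%, 7.47% and 6.64% of the others. At 15 h they were 15.4%, 2.17% and 5.26%, against 12.7%, 9.73% and 6.98%. Whether the levels differ in this was not tested.

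With IFN-γ at 3 h, 13 isolated enhancers were called (9.15%, beside 10.5% of all tested), 10 higher and 3 lower (7.04% and 2.11%, beside 7.59% and 2.90%). At 9 h 22 were called (15.5%, beside 19.4%), 14 higher and 8 lower (9.86% and 5.63%, beside 12.9% and 6.59%). At 15 h 20 were called (14.1%, beside 15.0%), 13 higher and 7 lower (9.15% and 4.93%, beside 10.1% and 4.94%). These totals fell to 3 to 8, 7 to 11 and 3 to 8 with any one of the 4 libraries left out. By whole-library totals the splits were 8 higher and 6 lower, 11 and 8, and 9 and 8, against 128 and 161, 293 and 187, and 189 and 194 for all tested.

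With CpG alone, 3 were called at 3 h (2.11%, beside 1.54% of all tested), with 2 higher and 1 lower (1.41% and 0.704%, beside 1.18% and 0.358%). At 9 h there were 12 (8.45%, beside 6.98%), 5 higher and 7 lower (3.52% and 4.93%, beside 4.48% and 2.51%). At 15 h there were 13 (9.15%, beside 7.59%), 5 higher and 8 lower (3.52% and 5.63%, beside 4.55% and 3.04%). By whole-library totals the splits were 2 and 1, 4 and 4, and 4 and 5, against 15 and 15, 95 and 55, and 94 and 73 for all tested. Without a filter on low counts CpG and IFN-γ at 15 h called 8 each. Without 1 library the CpG totals were 1 to 3, 4 to 6 and 4 to 7; at 3 h only leaving out unstimulated replicate 1, which gave 1, moved the total by more than 1.5 times.

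The median log2 change of the tested isolated enhancers was -0.04, 0.0012 and 0.00 with IFN-γ at 3, 9 and 15 h, 0.0032, 0.05 and 0.05 with CpG, and -0.03, 0.29 and -0.01 with both. For all tested enhancers it was 0.01, 0.10 and 0.00, then 0.00, 0.05 and 0.06, and 0.23, 0.32 and 0.31 with both. The medians of the 2 sets were thus apart by over 0.1 with both stimuli at 3 and 15 h. Whole-library totals moved the isolated medians to -0.35, -0.02 and -0.21 with IFN-γ, -0.01, 0.02 and 0.00 with CpG, and 0.00, 0.04 and 0.25 with both. The medians of all tested enhancers were then -0.25, -0.01 and -0.15, 0.00, 0.02 and 0.06, and 0.34, 0.05 and 0.51.

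**Figure D3:**
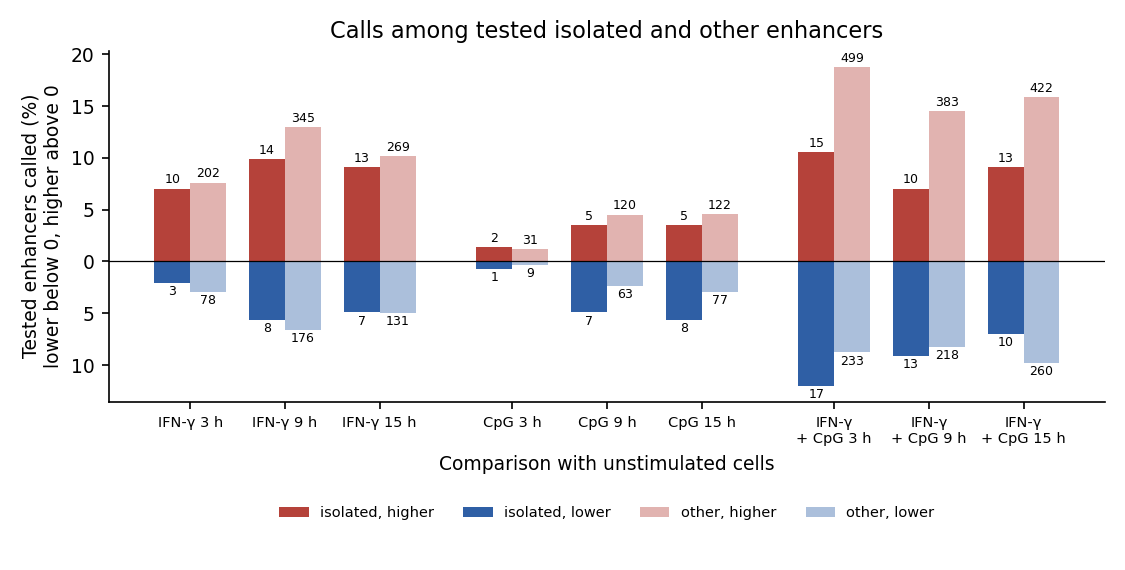
The percentage of tested enhancers called higher (above 0) or lower (below 0) than in unstimulated cells, for 142 isolated (dark) and 2650 other enhancers (pale) in the 9 comparisons; the number of enhancers stands at each bar. With both stimuli at 3 h, 15 isolated enhancers were higher and 17 lower, while 499 of the others were higher and 233 lower.

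Over the 9 comparisons, 35 of the 64 called isolated enhancers (54.7%) were higher only, 28 (43.8%) lower only, and 1, chr6:82741188-82741493, was called in both directions; 78 of the 142 were never called. Of all 1489 called enhancers 62.7% were higher only and 36.5% lower only. Both directions were called in 0.739% of them, beside 1.56% of the called isolated enhancers. A single comparison held 28 of the 64 (43.8%, beside 37.7% of all called), and 8 were called in 5 or more (12.5%, beside 15.9%). With both stimuli, 2 of the 142 were higher at all 3 times (1.41%, beside 6.38% of all tested) and 5 were lower at all 3 (3.52%, beside 3.44%). At 18 tested isolated enhancers both unstimulated libraries were without a tag, and 15 of these (83.3%) were called higher somewhere, beside 357 of 372 (96.0%) among all tested. Having no tag at 0 h, they could pass the minimum only through stimulated groups. A count of 0 in both unstimulated libraries allows a level of up to 3 tags in 27262303, as far as counting error goes.

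**Figure D4:**
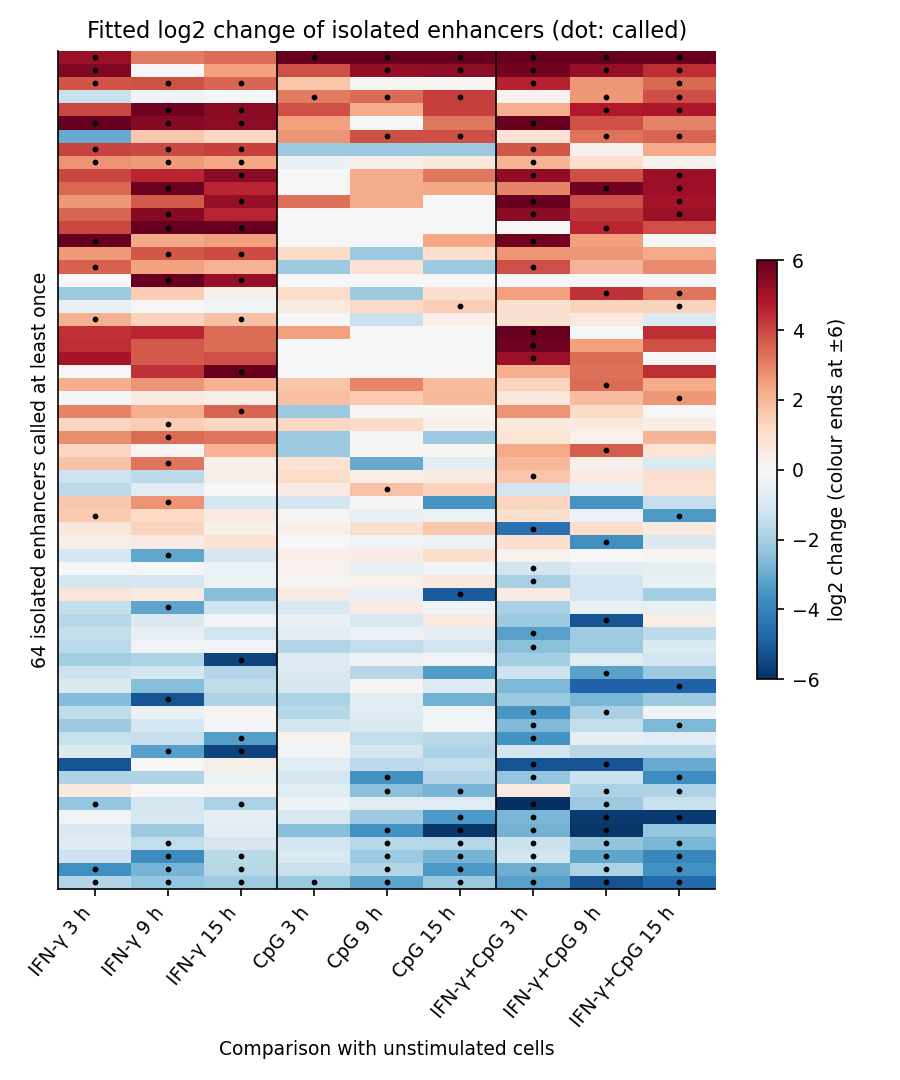
Fitted log2 change against unstimulated cells of the 64 isolated enhancers called at least once (rows, ordered from most often higher to most often lower) in the 9 comparisons (columns); red is higher, blue lower, colours end at ±6 and a dot marks a call. The fitted change of an enhancer with no tag in a group has no fixed size. Among the 64, 35 have dots for higher calls only and 28 for lower calls only, and the last row has a dot in all 9 columns.

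The only isolated enhancer called lower in all 9 comparisons with unstimulated cells was chr1:128518463-128519014, 116836.5 bp from its nearest neighbour. How many of all tested enhancers were lower in all 9 is not given here. This enhancer was also the 1 isolated enhancer lower at all 3 times of CpG (0.704%, beside 0.0716% of all tested). It had 48 and 58 tags in the unstimulated libraries, 12 and 10, 9 and 10, and 11 and 8 with IFN-γ at 3, 9 and 15 h, 10 and 8, 2 and 9, and 16 and 4 with CpG, and 4 and 7, 1 and 1, and 1 and 3 with both. No stimulated library reached a level near that of the unstimulated ones, and the groups with both stimuli at 9 and 15 h had the fewest tags in sum (2 and 4). Its log2 change was -1.76 ± 0.38 SE with IFN-γ at 3 h (adjusted p = 0.000282), -3.18 ± 0.43 with CpG at 9 h (1.38e-10) and -4.68 ± 0.52 with both at 15 h (1.59e-16); with both at 9 h the level was 51.2 times lower (95% counting interval 13.8 to 429, adjusted p = 5.74e-15). Averaged over times, both stimuli stood below IFN-γ alone (log2 difference -2.33 ± 0.41, adjusted p = 1.23e-06) and below CpG alone (-1.85 ± 0.44, 0.000354). Among the 9 calls against unstimulated cells, only that of IFN-γ at 3 h was lost when a library was left out (0.0513 without unstimulated replicate 2); the averaged call against CpG was lost in 1 of 12 such fits (0.102, without CpG 9 h replicate 2).

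A further pair of enhancers with many unstimulated tags fell in most comparisons. So did chr8:117801052-117801741, with 34 unstimulated tags in sum and 6 lower calls, which the naming rule did not take. At chr11:113063757-113064065 there were 24 tags in both unstimulated libraries and, in the order of 3, 9 and 15 h, 4 and 10, 1 and 2, and 6 and 6 with IFN-γ, 10 and 10, 6 and 4, and 2 and 4 with CpG, and 10 and 12, 3 and 1, and 2 and 1 with both. Every stimulated library was below the unstimulated ones; the lowest were IFN-γ at 9 h, where the level was 16.2 times lower (interval 5.22 to 81.4, adjusted p = 2.02e-06), and both at 15 h (15.5 times, 4.99 to 77.7, 2.30e-07). These 2 calls, and those of CpG at 15 h and both at 9 h, held without each single library, whereas those of IFN-γ at 15 h and both at 3 h were lost without any 1 of the 4 (adjusted p up to 0.152 and 0.284) and that of CpG at 9 h without unstimulated replicate 2 or CpG replicate 2 (up to 0.104). It was not called with IFN-γ or CpG at 3 h.

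At chr1:87828785-87829028 the unstimulated libraries had 20 and 19 tags, those with IFN-γ 2 and 0, 2 and 3, and 6 and 3, those with CpG 6 and 6, 7 and 4, and 3 and 0, and those with both 1 and 4, 5 and 3, and 2 and 1. No stimulated library had more than 7 tags. It was called lower in 8 of the 9 comparisons, by 18.8 times with IFN-γ at 3 h (interval 4.86 to 160, adjusted p = 0.000317). The calls of IFN-γ at 3 and 9 h and of both at 3 and 15 h held without each library; those of IFN-γ at 15 h, CpG at 9 h and both at 9 h were lost without any one (adjusted p up to 0.304, 0.333 and 0.152), and that of CpG at 15 h without CpG replicate 2 (0.0621).

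Rises under CpG were led by 2 enhancers that were higher at all 3 times (1.41%, beside 0.645% of all tested). At chr11:96713520-96713807, tags went from 1 and 3 in unstimulated libraries to 12 and 17, 21 and 22, and 31 and 36 with CpG at 3, 9 and 15 h, while IFN-γ libraries had 0 to 2 tags each. The CpG groups did not overlap with the unstimulated ones or with each other. The log2 rise was 3.10 ± 0.65, 3.40 ± 0.61 and 4.14 ± 0.56 (adjusted p = 0.000676, 8.25e-06 and 1.43e-10); the first call was lost without unstimulated replicate 1 or CpG replicate 2 (up to 0.178). With both stimuli the same enhancer started later: 3 and 2 tags at 3 h, within the range of the unstimulated libraries, then 9 and 11, and 34 and 30 at 15 h (log2 change against unstimulated cells 3.87 ± 0.57, adjusted p = 1.62e-09). From 3 h to 15 h with both stimuli it rose by 3.59 ± 0.54 (adjusted p = 1.94e-08), and averaged over times it stood 1.30 below CpG alone (log2 difference -1.30 ± 0.28, adjusted p = 6.61e-05); both held without each single library.

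At chr19:10822778-10823211 no tag was seen in unstimulated cells. CpG libraries had 7 and 9, 15 and 20, and 16 and 23 tags, libraries with both stimuli 11 and 11, 15 and 11, and 25 and 25, and those with IFN-γ 3 and 4, 0 and 2, and 1 and 1. The libraries with CpG, alone or with IFN-γ, were all above those with IFN-γ alone at the same time. A fold given as "at least", here and below, sets the empty group at 3 tags and takes the other group as counted. It is therefore not a lower confidence bound. The level was at least 5.49, 11.8 and 13.7 times higher with CpG (adjusted p = 0.000676, 6.16e-08 and 4.34e-09) and at least 7.30, 8.96 and 17.2 times with both (1.63e-05, 2.86e-07 and 5.64e-11); only the first of these 6 calls was lost without a library, either unstimulated one (up to 0.0933). With IFN-γ at 3 h it was called too (at least 2.43 times, adjusted p = 0.0150), a call that no fit without 1 of the 4 libraries kept (up to 0.176).

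A further CpG rise, at chr11:98599215-98599887, went from 0 and 2 unstimulated tags to 15 and 16 at 9 h and 10 and 19 at 15 h (15.7 times, interval 4.00 to 136, adjusted p = 0.000152, and 15.3 times, 3.88 to 133, 0.000160). At 3 h it had 4 and 7 tags and was not called. Both calls were lost without unstimulated replicate 1, and the second also without CpG replicate 2 (up to 0.0767). At chr16:8485222-8485415, with 0 tags at 0 h, 6 comparisons with unstimulated cells were called higher and none held without each library. It had 3 and 6 tags after 3 h of IFN-γ (adjusted p = 0.0117, lost in 3 of 4 fits), 1 and 9 after 9 h of CpG and 5 and 5 after 15 h of it (0.0270 and 0.0197, lost in 3 and 4 of 4). With both stimuli it had 1 and 15, 6 and 2, and 5 and 1 tags; the call at 3 h was lost without replicate 2 of that group (0.407), the others in 3 and 4 of 4 fits (up to 0.433).

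Under IFN-γ, 4 isolated enhancers were higher at all 3 times (2.82%, beside 3.90% of all tested). One was chr6:127424611-127424976, with 0 and 1 unstimulated tags, 8 and 7, 8 and 10, and 10 and 7 with IFN-γ, none in any of the 6 CpG libraries, and 6 and 11, 0 and 1, and 4 and 2 with both. Its IFN-γ libraries were all above all unstimulated and CpG libraries. The rise against unstimulated cells was 15.6, 17.8 and 17.4 times (intervals 2.40 to 656, 2.81 to 740 and 2.73 to 729; adjusted p = 0.00376, 0.00232 and 0.00213), and each call was lost without unstimulated replicate 1, the library with no tag; those at 3 h and 15 h were also lost without IFN-γ replicate 2 and replicate 1 (up to 0.159). DESeq2 kept none of the 3 (adjusted p = 0.0844, 0.0639 and 0.0591). Averaged over times, CpG was at least 16.4 times lower than IFN-γ (adjusted p = 6.21e-12), which held without each of 12 libraries. Both stimuli together stood 1.96 below IFN-γ alone on the log2 scale (-1.96 ± 0.49, adjusted p = 0.00116).

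The others were chr3:127687642-127687910, chr5:122981958-122982254 and chr13:47258412-47258800, the last named only because it completes the count. The first had no unstimulated tag, 6 and 7, 4 and 7, and 5 and 4 with IFN-γ, 0 or 1 in each CpG library, and 9 and 15, 2 and 1, and 0 and 2 with both. With both stimuli it was thus high at 3 h only: at least 7.97 times above unstimulated cells at 3 h (adjusted p = 7.24e-05, held without each library) and 11.6 times lower at 15 h than at 3 h (interval 2.87 to 101, adjusted p = 0.00639, lost without replicate 2 at 3 h or replicate 1 at 15 h, up to 0.141). The second had 1 and 0 unstimulated tags, 5 and 7, 9 and 7, and 6 and 5 with IFN-γ, and 15 and 17 with both at 3 h, where it was 31.9 times higher (interval 5.32 to 1297, adjusted p = 1.35e-05, held without each library). The IFN-γ calls of both enhancers were each lost without 1 or more libraries, unstimulated ones among them (up to 0.158 and 0.194), and DESeq2 kept none of the 3 calls of the second (adjusted p = 0.0991, 0.0645 and 0.109).

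At chr7:45708566-45708712 the rise was seen at 9 and 15 h of IFN-γ. It had no tag in unstimulated cells or in any CpG library, 2 and 1, 12 and 17, and 14 and 13 tags with IFN-γ at 3, 9 and 15 h, and 0 and 0, 4 and 1, and 2 and 2 with both. The IFN-γ libraries at 9 and 15 h were above all others. The level was at least 9.54 times higher at 9 h (adjusted p = 7.46e-06) and at least 9.23 times at 15 h (7.81e-06) than at 0 h, and both calls held without each library. Averaged over times, adding CpG went with a log2 difference of -3.11 ± 0.76 against IFN-γ alone (adjusted p = 0.000850), lost in 1 of 12 fits without a library (0.0527, without IFN-γ 3 h replicate 1). It was also the one isolated enhancer called between 3 h and 15 h of IFN-γ (8.88 times higher, interval 2.73 to 45.7, adjusted p = 0.0385), a call that no fit without 1 of the 4 libraries kept (up to 0.515).

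**Figure D5:**
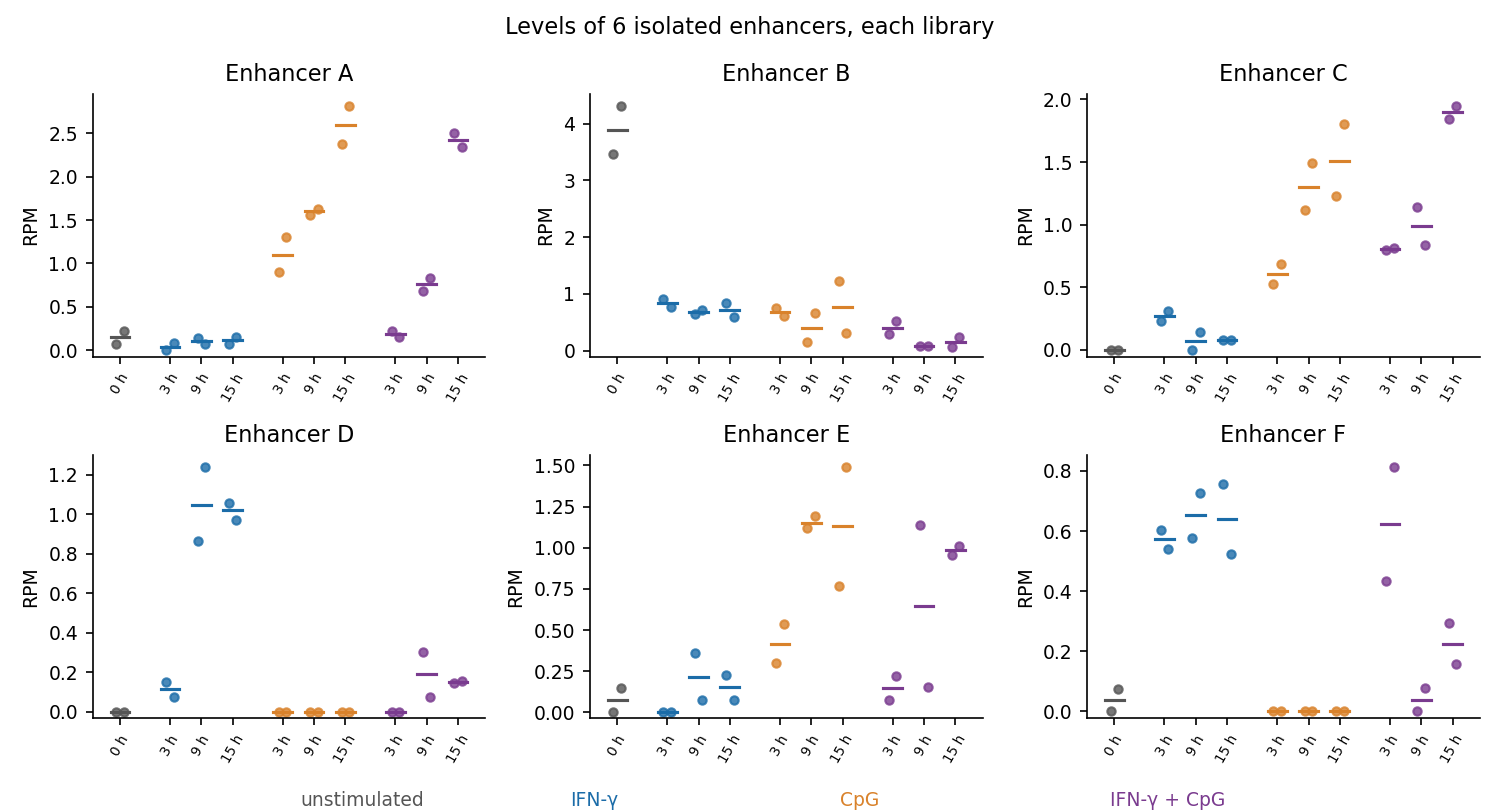
RPM in each library (points) and group means (bars) by stimulus and hours for the 6 named isolated enhancers with the smallest p in the test of any difference among the 10 groups: A is chr11:96713520-96713807, B chr1:128518463-128519014, C chr19:10822778-10823211, D chr7:45708566-45708712, E chr11:98599215-98599887 and F chr6:127424611-127424976; each panel has its own scale. B is highest at 0 h, A, C and E in libraries with CpG, and D and F in libraries with IFN-γ, both of these being at 0 in all 6 libraries with CpG alone.

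Some isolated enhancers changed with both stimuli where neither alone gave a call at that time. Their number, and the share among all tested, was not counted. The first described, chr1:162043377-162043686, was called higher by edgeR at 15 h both with IFN-γ alone (adjusted p = 0.0225) and with both stimuli (0.0188). At chr1:162043377-162043686 unstimulated cells had no tag, IFN-γ and CpG at 3 h gave 0 and 1, and 1 and 1, and both gave 7 and 15 (at least 7.30 times higher than unstimulated, adjusted p = 0.000291, held without each library; DESeq2 gave it no adjusted p). At chr1:40278720-40278935 both stimuli at 9 h gave 13 and 7 tags, against 0 and 1 at 0 h, 1 and 2 with IFN-γ and 0 with CpG (20.7 times higher than unstimulated, interval 3.31 to 857, adjusted p = 0.00138, lost without unstimulated replicate 1 or replicate 1 of both stimuli, up to 0.0732). Averaged over times, the second was higher with both stimuli than with IFN-γ (log2 difference 3.48 ± 0.82, adjusted p = 0.000526) and than with CpG (3.36 ± 0.77, 0.000183), and these 2 calls held without each library. Whether a response to both exceeded the sum of the single responses was not tested.

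Falls with both stimuli included a pair that are each other's nearest neighbours, 107833.5 bp apart. One of them, chr19:10256978-10257378, was also called lower by edgeR with IFN-γ alone at 3 h (log2 change -2.34, adjusted p = 0.0177) and 15 h (-1.91, 0.0285). DESeq2 kept neither of these calls (adjusted p = 0.102 and 0.143). At chr19:10256978-10257378 tags went from 22 and 8 to 0 and 0 with both stimuli at 3 h (at least 10.0 times lower, adjusted p = 1.13e-06, held without each library), 3 and 2 at 9 h, and 6 and 6 at 15 h; with CpG alone there were 7 to 12 tags in each library. Averaged over times it was lower with both than with CpG (log2 difference -2.85 ± 0.56, adjusted p = 1.18e-05, held without each library). At chr19:10149238-10149451 tags went from 11 and 5 to 0 and 0 with both stimuli at 9 h (at least 5.16 times lower, adjusted p = 0.00773) and to 0 and 0 with CpG at 15 h (at least 5.04 times lower, 0.0137); each of these calls was lost in 3 of 4 fits without a library (up to 0.112 and 0.204). The unstimulated libraries differed from each other at both enhancers, replicate 1 having more than 2 times the tags of replicate 2.

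At chr15:80103459-80104011 tags went from 11 and 14 to 0 and 2 with both stimuli at 3 h (12.6 times lower, interval 3.13 to 109, adjusted p = 0.000307, held without each library) and were back at 9 and 13 by 15 h. The rise from 3 h to 15 h was called (11.4 times, interval 2.81 to 100, adjusted p = 0.00413), though not without replicate 1 at 3 h or replicate 2 at 15 h (up to 0.130) nor with DESeq2 (0.0541). The opposite course was seen at chr6:82741188-82741493, with 7 and 6 unstimulated tags, 10 and 16 with both at 3 h, 4 and 4 at 9 h and 0 and 1 at 15 h. It was 25.1 times lower at 15 h than at 3 h (interval 4.12 to 1027, adjusted p = 0.000176, held without each library). With IFN-γ alone it had 17 and 11, 15 and 12, and 8 and 7 tags, and averaged over times both stimuli stood below IFN-γ alone (log2 difference -2.04 ± 0.42, adjusted p = 4.73e-05, held without each library). Its single rise, with IFN-γ at 3 h (1.59 ± 0.53, adjusted p = 0.0349), was lost without any 1 of the 4 libraries (up to 0.314), and its fall with both at 15 h (12.6 times, interval 1.89 to 535, adjusted p = 0.00862) in 3 of 4 such fits (up to 0.142).

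Between stimuli, with the 3 times averaged, 64 of the 142 isolated enhancers differed between CpG and IFN-γ (45.1%, beside 42.6% of all tested). Of these, 34 (23.9%) were higher with CpG and 30 (21.1%) lower, beside 20.6% and 22.0%. Higher with CpG, besides those named above, were chr14:70450027-70450384 (27 tags over 6 CpG libraries against 1 over 6 IFN-γ libraries, 27.4 times, interval 4.52 to 1123, adjusted p = 8.53e-05) and chr2:136956263-136957097 (31 against 1, 31.5 times, 5.25 to 1284, 2.08e-05), and both held without each library. With both stimuli against IFN-γ alone 29 differed (20.4%, beside 21.4% of all tested), of which 14 were higher (9.86%) and 15 lower (10.6%), beside 12.4% and 9.03%. Among those lower was chr19:37424075-37424522, with 8 tags over the 6 libraries with both against 48 with IFN-γ (log2 difference -2.69 ± 0.50, adjusted p = 4.44e-06, held without each library) and 1 or 2 tags in each library with both.

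With both stimuli against CpG alone 36 isolated enhancers differed (25.4%, beside 30.1% of all tested), 16 higher (11.3%) and 20 lower (14.1%), beside 17.9% and 12.1%. This direction turned with some settings and not with others. With 1 stimulus effect over the 3 times in place of averaged groups, a fit added after seeing the data, 21 were higher and 12 lower. Of all tested enhancers 539 were higher and 295 lower in that fit. With whole-library totals the split was 19 and 15. For both against IFN-γ alone these splits were 14 and 13, and 15 and 10, and for CpG against IFN-γ 28 and 33, and 35 and 27. For all tested enhancers, whole-library totals gave 564 higher and 277 lower for both against CpG and 466 and 150 for both against IFN-γ. For CpG against IFN-γ they gave 665 and 554. With 1 stimulus effect, all tested enhancers gave 319 and 217 for both against IFN-γ and 533 and 632 for CpG against IFN-γ. RLE factors left 16 isolated enhancers higher and 18 lower for both against CpG, beside 525 and 311 of all tested. A stricter filter on low counts, which tested 36 isolated enhancers, gave 3 and 10, beside 200 and 171 of 758. For both against IFN-γ that filter gave 5 and 14, beside 135 and 127. The median over tested isolated enhancers of the difference between both and CpG was -0.32 with averaged groups and -0.27 with 1 effect, against 0.06 and 0.08 for all tested.

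Over time, few isolated enhancers differed between 3 h and 15 h of a single stimulus: 1, higher, with IFN-γ (0.704%, beside 1.04% of all tested, and 0.394% higher) and none with CpG (beside 0.645%), where edgeR gave 15 of 142 an unadjusted p under 0.05, DESeq2 made no call and limma made 2 with a pseudocount of 2. With both stimuli 15 changed (10.6%, beside 9.28% of all tested), 8 higher (5.63%) and 7 lower (4.93%), beside 4.48% and 4.80%. The count was 3 to 7 with 1 of the 4 libraries left out.

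Nearest tested neighbours were compared over classes of distance. Over the 29 pairs of tested enhancers that lay more than 100000 bp apart, Pearson's r of the log2 changes of the 2 members was 0.20 to 0.26 for IFN-γ, 0.05 to 0.21 for CpG and 0.21 to 0.37 for both stimuli at the 3 times. Over 288 pairs within 2000 bp it was 0.46 to 0.59, 0.31 to 0.44 and 0.59 to 0.63. The classes between did not form a steady decline: over the 9 comparisons r was 0.39 to 0.63 at 2000 to 10000 bp (181 pairs), 0.02 to 0.39 at 10000 to 50000 bp (66 pairs) and -0.33 to 0.71 at 50000 to 100000 bp (20 pairs). Pairs at 10000 to 50000 bp had lower values than those beyond 100000 bp with CpG, with IFN-γ at 3 h and with both at 3 and 9 h. They had higher values with IFN-γ at 9 and 15 h (0.39 and 0.38, against 0.20 and 0.26) and with both at 15 h (0.25, against 0.21). These are descriptions over pairs that share the same libraries and unstimulated cells, and no difference between classes was tested. The share of tested enhancers called in any of the 9 comparisons was 54.7% with a neighbour within 1000 bp, 50.0% at 50000 to 100000 bp, 47.1% at 100000 to 200000 bp, 47.2% at 200000 to 500000 bp and 33.3% (7 of 21) beyond.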

How the data were processed

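The sample labels gave each library's group and replicate number. The submitters' processing notes name HISAT2 2.1.0, BWA 0.7.10, Trimmomatic 0.38, FastQC 0.11.5 and mm39, with no roles; the caller of the enhancers is not given in the sources used here. Raw tag counts per enhancer were deposited by the authors, with a second table whose values, by comparison with the counts, are RPM of the whole library. Positions are as deposited, since no source says whether starts begin at 0 or 1. The annotation and sequences at hand are of GRCm38, so genes, sequences, motifs and cell type markers near these enhancers are not analysed here.

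The limit and the members, and the lists and tests, were chosen with earlier results of these data known. Counts were tested with edgeR 4.0.16 in R 4.3.3 (robust quasi-likelihood F-test, TMM factors, 1 coefficient per group over 20 libraries, 10 residual degrees of freedom; filterByExpr with a minimum count of 5 and total of 15). A standard error is the log2 change over the square root of F. Where a group had no tag, 3 tags summed over its libraries served as the floor of an "at least" fold; from 1 to 3 tags, the RPM ratio has an exact 95% interval. Intervals cover counting error only. Floors cover that of the empty group alone, since the tags of the other group enter as counted. Exact permutation tests over libraries used log2 ratios of isolated to other tags, within times or stimuli (numpy 2.4.6). edgeR's common coefficient of variation between replicates came to 17.8%. In simulated counts of 2792 enhancers for the comparison of IFN-γ at 3 h, the test found 88.0% of rises by 8 times, 38.0% by 4 times and 0.0% by 2 times, and 16.0% of falls by 4 times. Of its calls 2.74% were false. The simulation gave all enhancers the same variability and planted changes in that group only. It also left out the filter on low counts. Its shares therefore do not give the share of false calls in the real data. Beyond "biological replicate" nothing says whether replicates came from separate animals, so p-values measure the spread between these libraries.

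Named enhancers were, among called ones with both libraries of a side beyond both of the other (for averaged times, the same direction at each time) and a mean of at least 5 tags in a group, by log2 change the first 4 rises and 3 falls of each of the 9 comparisons with 0 h, and 3 and 2 of any other comparison; the 5 highest by level; the 5 farthest; the 3 on either side of the limit; and the 3 steadiest of at least 10 mean tags. Of these 55, those with few tags are left to the counts. Alternatives were RLE factors, whole-library totals, DESeq2 1.42.0, no or a stricter filter (10 and 30), a replicate block, limma 3.58.1 on the log2 scale of RPM with a pseudocount of 0.5 or 2, each library left out, limits of 50 and 200 kb, distance between edges, assembled chromosomes, equal weights, and the 5 highest enhancers left out. The level split, the single stimulus effect, the distance classes and the neighbour pairs were added after seeing the data.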

Additional observations from a re-analysis of the deposited data

How the results depend on the processing

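Counts of called isolated enhancers were the most dependent on the processing; the range with 1 library left out was 3 to 8, 7 to 11 and 3 to 8 for IFN-γ at 3, 9 and 15 h, 1 to 3, 4 to 6 and 4 to 7 for CpG, 12 to 20, 6 to 8 and 9 to 13 for both, 66 to 83 for CpG against IFN-γ, 21 to 27 and 28 to 38 for both against IFN-γ and CpG, and 0 to 0, 0 to 0 and 3 to 7 for 15 h against 3 h. DESeq2 gave 5, 6 and 3 for IFN-γ, 5 and 7 for CpG at 9 and 15 h, 8, 5 and 7 for both, 31, 17 and 14 for the 3 comparisons between stimuli, and 0 and 5 for 15 h against 3 h of IFN-γ and of both. Without a filter on low counts there were 7 and 8 for IFN-γ (3 and 15 h), 6 and 8 for CpG at 9 and 15 h, 13 and 13 for both at 9 and 15 h, and 0 for IFN-γ 15 h against 3 h. The stricter filter tested only 36 isolated enhancers, so its counts are not out of 142. It gave 10 and 9 for 9 and 15 h of IFN-γ, 14, 13 and 12 for both, and 20, 19 and 13 between stimuli. Among all 758 enhancers it tested, these counts were 266 and 232, 352, 314 and 316, and 443, 262 and 371. For DESeq2, no filter and limma the share among all tested enhancers is not given here. limma on RPM plus 0.5 gave 20 for IFN-γ at 3 h, 6 for CpG at 3 h, and 5 and 28 for 15 h against 3 h of IFN-γ and of both; with a pseudocount of 2 these were 20, 7, 4 and 30, and 2 for CpG. Whole-library totals left 0 for IFN-γ 15 h against 3 h. The cause of these moves was not tested.

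The log2 ratio of isolated to other tags kept its direction for both stimuli against IFN-γ, CpG and unstimulated cells in every alternative run, with ranges of -0.18 to -0.14, -0.2 to -0.19 and -0.22 to -0.18 with 1 library left out; the others ranged from -0.1 to -0.06 (any stimulus against unstimulated), -0.06 to -0.01 (IFN-γ), -0.02 to 0.01 (CpG; 0.01 without unstimulated replicate 2 or either CpG 3 h library), 0.01 to 0.05 (CpG against IFN-γ) and 0.07 to 0.1 (15 h against 3 h). A limit of 50 kb, with 1851 isolated enhancers, gave -0.18 for both against CpG and 0.11 for 15 h against 3 h, each with an adjusted p of 0.0370, and turned CpG against unstimulated cells to 0.03. A limit of 200 kb, with 638, turned it to 0.11, IFN-γ to 0.02 and any stimulus to 0.02. Equal weights per enhancer used the mean log2 of RPM plus 0.5, which is on another scale and depends on library scaling. There both stimuli stood at -0.04 against IFN-γ and -0.03 against CpG (adjusted p = 0.0370 for both, exact permutation test). CpG against IFN-γ (-0.0038), CpG (0.00099) and IFN-γ (0.0048) against unstimulated cells turned. Without the 5 highest enhancers of each set IFN-γ turned to 0.01 and CpG to 0.03. By level, the values that passed were -0.37, -0.27 and 0.23 (15 h against 3 h, adjusted p = 0.0494) at 3 tags or more and -0.14, -0.21 and 0.10 (0.0494) from 1 to 3 tags, where CpG against IFN-γ turned to -0.06 and IFN-γ to 0.04; under 1 tag 15 h against 3 h turned to -0.07.

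The replicate number as a block moved no count by over 1.5 times (29, 22 and 21 for both stimuli). On the ratio no comparison passed with or without the block (adjusted p for both against CpG 0.250, exact permutation test). With the block too few arrangements remain for any adjusted p under 0.05, so this setting could not decide. Same-numbered libraries did not deviate together (r -0.051 to 0.038 over pairs of groups), so the numbers were not taken to pair the samples. Of 193 edgeR calls of named enhancers, 60 held without each single library; DESeq2 kept 86, lost 55 and gave 52 no adjusted p. The level ratio of 1.48 was 1.53 and 1.55 with the other limits. Depth limits these results: most isolated enhancers had too few tags for a test.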
